A study of Mus musculus with 14 samples.

Results

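The genes described here are the classical axon guidance ligands and receptors: the semaphorins of classes 3 to 7 with their receptors, the plexins and neuropilins, the ephrins with the Eph receptors, the Slits with the Robo receptors, and the netrins with Dcc and the Unc5 receptors. They were taken by mouse gene symbol from the deposited expression table, and 59 of its 15119 genes matched. Of these, 58 are protein-coding, 28 of them ligands and 30 receptors, and the remaining one, Plxna4os2, is an RNA gene antisense to Plxna4. Another 13 matching symbols of the mouse annotation (Sema3f, Sema3g, Sema6c, Plxna4os1, Plxna4os3, Epha6, Epha8, Epha10, Efna3, Slit1, Robo3, Ntn3 and Ntn5) were not analysed here. The study compared sorted cells of the adult mouse dentate gyrus, taken as precursor cells, that differed in how much reactive oxygen species (ROS) they held. Markers of other cell types also differed between the sorted classes and are given below. All 14 libraries came from untreated adult mice of strain B6.Cg-Tg(Nes-EGFP)1Yamm in standard housing, in which Nestin regulatory elements drive GFP. GFP-positive cells were sorted by the fluorescence of dihydroethidium, a dye that reports ROS, into 3 classes: ROS+ (5 libraries), ROS++ (5) and ROS+++ (4). The labels do not say whether libraries of a class came from separate animals, so every p-value here is set against the variation among these samples alone, and that variation may be technical.

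Guidance ligands are secreted or membrane-bound proteins that attract or repel the growing tip of an axon or a migrating cell by binding receptors on its surface. Class 3 semaphorins are secreted and act through a neuropilin and a plexin, most other semaphorins bind plexins directly, ephrins bind Eph receptor tyrosine kinases on touching cells, Slits bind Robos, and netrin-1 binds Dcc or an Unc5 receptor. In the dentate gyrus the same proteins take part in the placement and wiring of newborn granule neurons, and several also act in blood vessels and in cells of the oligodendrocyte lineage.

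Levels are given as CPM, the reads of a gene per 1000000 reads of its library, and levels of different genes are compared only as CPM per kilobase (kb) of exon. Exon length here is the merged length of all annotated exons of a gene and not that of 1 transcript. Rankings and shares per kb depend on it. A difference is a change on the log2(CPM + 1) scale with its standard error (SE), tested with limma over 15102 genes and called where the Benjamini-Hochberg adjusted p was under 0.05. Library totals were 20832009 to 25313902 reads for ROS+, 18325361 to 23454022 for ROS++ and 12704227 to 20998589 for ROS+++. A count of 0 therefore allows a level of up to 0.119 to 0.236 CPM (3 reads), a limit that covers counting error only. All 59 genes passed the minimum of 1 CPM in at least 4 libraries, and each had 313 to 48258 reads over all libraries. A gene that passes such a minimum through 1 class alone is bound to differ between classes, so the counts of called genes describe these 59 genes and no wider set.

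Guidance genes were mostly lowest in the class with the most ROS. In ROS++, 24 of the 59 differed from ROS+ (40.7%), against 29.6% of all genes tested. Of these, 7 were higher in ROS++, against 16.4% of all genes, and 17 were lower, against 13.2%. In ROS+++, 49 differed from ROS+ (83.1%), against 59.2% of all genes. There, 11 were higher in ROS+++, against 19.2%, and 38 were lower, against 40.0%. From ROS++, ROS+++ differed in 36 (61.0%), against 39.1%, with 6 higher in ROS+++, against 9.89%, and 30 lower, against 29.2%. The 3 comparisons share their libraries pairwise and are not independent of one another.

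The median difference over the 59 genes was -0.38 between ROS++ and ROS+, where the median over all genes was -0.03. It was -1.80 against -0.44 between ROS+++ and ROS+, and -0.85 against -0.34 between ROS+++ and ROS++. The shift of all genes in the comparisons with ROS+++ depended on the scaling: with relative log expression factors in place of library totals the median of all genes was -0.04 between ROS+++ and ROS+ and 0.03 between ROS+++ and ROS++. With relative log expression factors the median of the 59 genes was -1.40 between ROS+++ and ROS+ and -0.52 between ROS+++ and ROS++. Under the same factors the calls between ROS+++ and ROS++ numbered 10 higher and 25 lower in place of 6 and 30. Among all genes, the share of calls that were higher in ROS+++ moved from 32.5% to 50.6% against ROS+ and from 25.3% to 52.2% against ROS++. Upper-quartile factors and the trimmed mean of M values were the other scalings tried. All summed levels per kb given below use library totals only. How they compare between ROS+++ and the other classes therefore depends on the scaling too.

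Libraries of 2 classes often did not overlap at all. Every ROS+++ library was below every ROS+ library for 37 of the 59 genes, which held for 33.2% of all genes, and above every one for 10, against 16.8%. All ROS++ libraries were below all ROS+ libraries for 15 genes, against 10.9%, and above for 5, against 12.1%. All ROS+++ libraries were below all ROS++ libraries for 23 genes, against 19.5%, and above for 4, against 7.48%. The F-test over the 3 classes called 52 of the 59 genes, against 61.5% of all genes. By class means, 31 of them peaked in ROS+ with their minimum in ROS+++ (28.3% of all genes) and 7 followed the opposite order (14.8%). Another 8 peaked in ROS++ with their minimum in ROS+++ (9.95%). The other orders held 2 genes each: a peak in ROS++ with the minimum in ROS+ (4.56%), a peak in ROS+ with the minimum in ROS++ (2.62%), and a peak in ROS+++ with the minimum in ROS++ (1.27%).

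**Figure D1:**
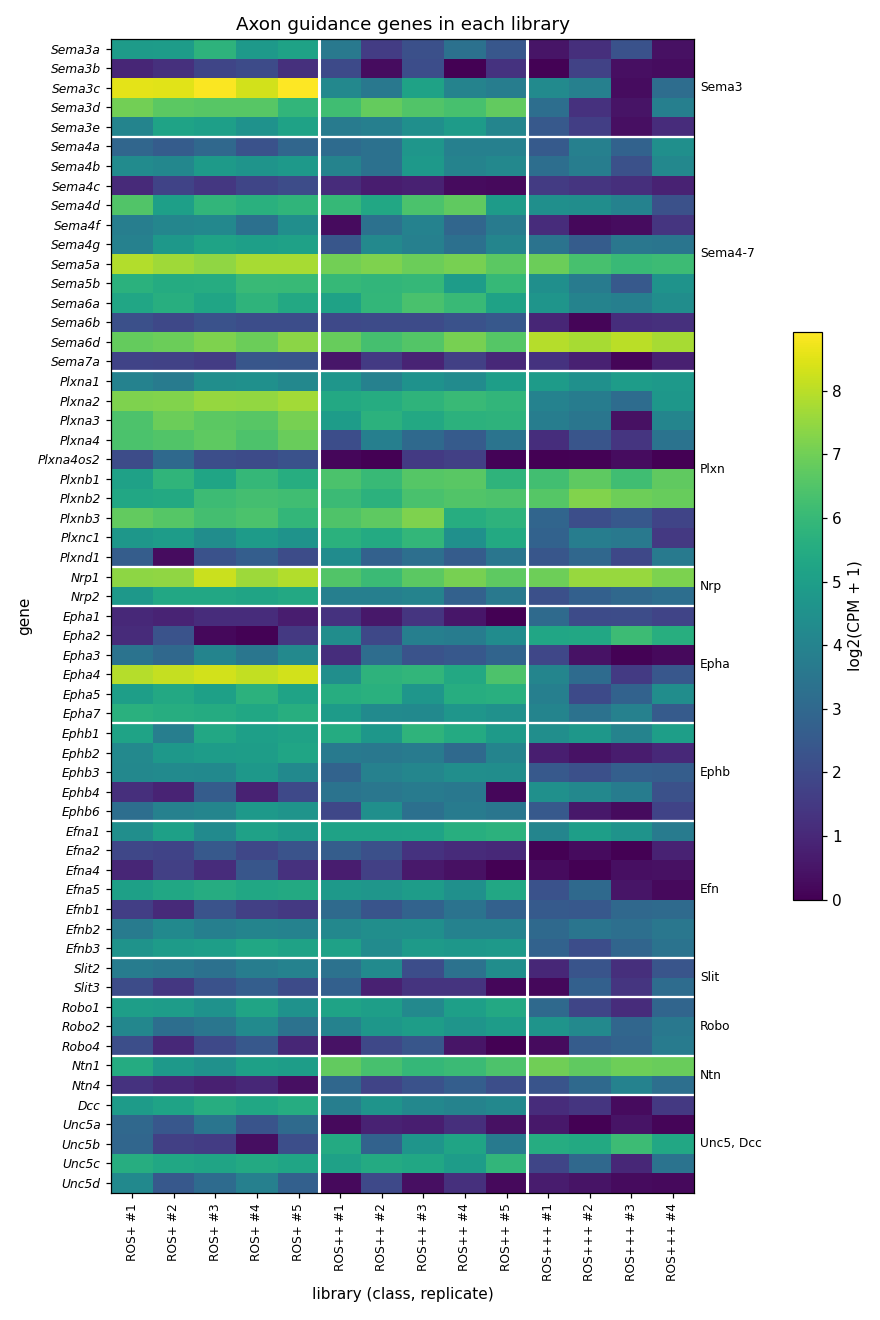
Level of each of the 59 guidance genes in each of the 14 libraries, as log2(CPM + 1), with genes in rows grouped by family and libraries in columns grouped by ROS class. Yellow is high and dark blue low. Rows such as Sema3c and Epha4 are brightest in the ROS+ columns and darkest in the ROS+++ columns, while Epha2, Ntn1, Unc5b and Plxnb2 run the other way.

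The sorted classes also differed in markers of several cell types, listed here because the guidance genes moved alongside them. The summed level of 11 neuroblast markers was 12130 to 17630 CPM in ROS+ libraries, 1010 to 2511 in ROS++ and 35.9 to 215 in ROS+++, with Neurod6 at 0 in at least one library of ROS++ and Neurod6 and Calb2 in ROS+++. For 7 markers of oligodendrocyte precursors the sums were 2058 to 3027, 1975 to 3834 and 17.4 to 336 CPM. For 12 mural cell (pericyte and vascular smooth muscle) markers they were 18.3 to 526, 8089 to 24750 and 54420 to 63130 CPM, and for 10 endothelial markers 106 to 292, 33.3 to 342 and 391 to 699 CPM. Sums for 10 radial glia-like markers were 1236 to 1940, 6972 to 9612 and 6589 to 10120 CPM. The sums were 573 to 728, 129.7 to 259 and 14.8 to 83.6 CPM for 7 markers of mature neurons, 1965 to 5461, 1987 to 10830 and 512 to 694 CPM for 9 of oligodendrocytes, and 3.47 to 16.8, 941 to 2376 and 738 to 2955 CPM for 12 of microglia and macrophages, 6 of which were at 0 in a ROS+ library. They were 3.47 to 72.9, 207 to 433 and 617 to 1011 CPM for 8 of leptomeningeal fibroblasts and 25.8 to 303, 355 to 772 and 6.29 to 75.8 CPM for 6 of proliferation. All 12 mural markers were higher in ROS++ and in ROS+++ than in ROS+, and all 11 neuroblast and all 7 oligodendrocyte precursor markers were lower in ROS+++ than in ROS+. In bulk libraries such as these, fewer cells of a type and less RNA per cell cannot be told apart. The part of these marker groups in the differences between guidance genes was not tested.

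Promoter sequences are shown for 6 members that represent the opposite patterns, since members that move together may be compared by the DNA before their start. The first 3 were lower in ROS++ than in ROS+ and lower again in ROS+++ than in ROS++, and the last 3 were higher in ROS+++ than in ROS+. Within each pattern they had the smallest p in the F-test among members with a single usable promoter window. Dcc and Ntn1, whose p was smaller than that of some genes shown, had no such window. Each window is the 250 bases before the transcription start, from RefSeq on build GRCm38.p6, written 5′ to 3′ on the strand of the gene. Capitals mark matches, on either strand, to 5 motifs: the E-box CAGNTG bound by proneural factors, the GC box GGGCGG, the CCAAT box, the TATA box TATAAA and the AP-1 site TGANTCA.
Plxna2, chr1:194619579-194619828, plus strand: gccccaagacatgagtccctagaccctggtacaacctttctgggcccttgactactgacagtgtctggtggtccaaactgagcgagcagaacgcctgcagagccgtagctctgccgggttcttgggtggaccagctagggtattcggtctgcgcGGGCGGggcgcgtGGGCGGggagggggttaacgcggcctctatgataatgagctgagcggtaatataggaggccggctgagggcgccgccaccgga
Ephb2, chr4:136836013-136836262, minus strand: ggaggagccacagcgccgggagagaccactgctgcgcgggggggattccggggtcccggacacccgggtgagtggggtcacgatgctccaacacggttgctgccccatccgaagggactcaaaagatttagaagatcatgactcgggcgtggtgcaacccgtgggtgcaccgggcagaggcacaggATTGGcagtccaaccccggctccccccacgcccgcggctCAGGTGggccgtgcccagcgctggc
Epha4, chr1:77515089-77515338, minus strand: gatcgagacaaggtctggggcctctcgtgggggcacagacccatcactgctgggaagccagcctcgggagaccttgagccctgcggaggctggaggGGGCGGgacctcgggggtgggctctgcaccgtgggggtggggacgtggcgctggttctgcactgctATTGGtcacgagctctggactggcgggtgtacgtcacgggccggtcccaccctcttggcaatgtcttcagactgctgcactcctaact
Epha2, chr4:141300971-141301220, plus strand: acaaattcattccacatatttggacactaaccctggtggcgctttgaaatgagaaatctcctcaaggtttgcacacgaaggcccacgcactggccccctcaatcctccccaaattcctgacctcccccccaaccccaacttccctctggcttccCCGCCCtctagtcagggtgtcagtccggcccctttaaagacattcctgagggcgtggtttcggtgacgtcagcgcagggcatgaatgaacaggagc
Unc5b, chr10:60831582-60831831, minus strand: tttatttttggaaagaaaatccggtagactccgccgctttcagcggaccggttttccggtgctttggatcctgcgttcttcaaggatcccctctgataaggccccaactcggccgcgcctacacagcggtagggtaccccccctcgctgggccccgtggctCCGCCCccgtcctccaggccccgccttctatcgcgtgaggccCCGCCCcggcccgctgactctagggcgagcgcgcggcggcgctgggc
Ntn4, chr10:93640799-93641048, plus strand: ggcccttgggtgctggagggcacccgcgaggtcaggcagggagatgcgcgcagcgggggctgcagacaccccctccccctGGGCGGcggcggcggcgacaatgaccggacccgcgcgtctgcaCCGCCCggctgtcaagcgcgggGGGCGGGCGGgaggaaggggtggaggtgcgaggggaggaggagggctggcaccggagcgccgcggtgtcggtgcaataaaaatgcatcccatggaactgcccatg
The GC box was the match most often found, with 2 in Plxna2, 1 in Epha4, 1 in Epha2, 2 in Unc5b and 4 in Ntn4. The E-box CAGNTG occurred once, in Ephb2, and the CCAAT box once each in Ephb2 and Epha4. Neither TATAAA nor TGANTCA occurred in these 6 windows. Over the 64 windows of the 50 members with a usable promoter window, the GC box was in 68.8%, the E-box in 34.4%, CCAAT in 25.0%, TATAAA in 3.12% and TGANTCA in 4.69%. Over all 32851 promoter windows of the same length the shares were 32.7%, 44.8%, 33.8%, 12.4% and 6.75%. That wider set was not limited to genes measured here, so the shares are not matched for expression. A match describes letters and not a bound site.

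**Figure D2:**
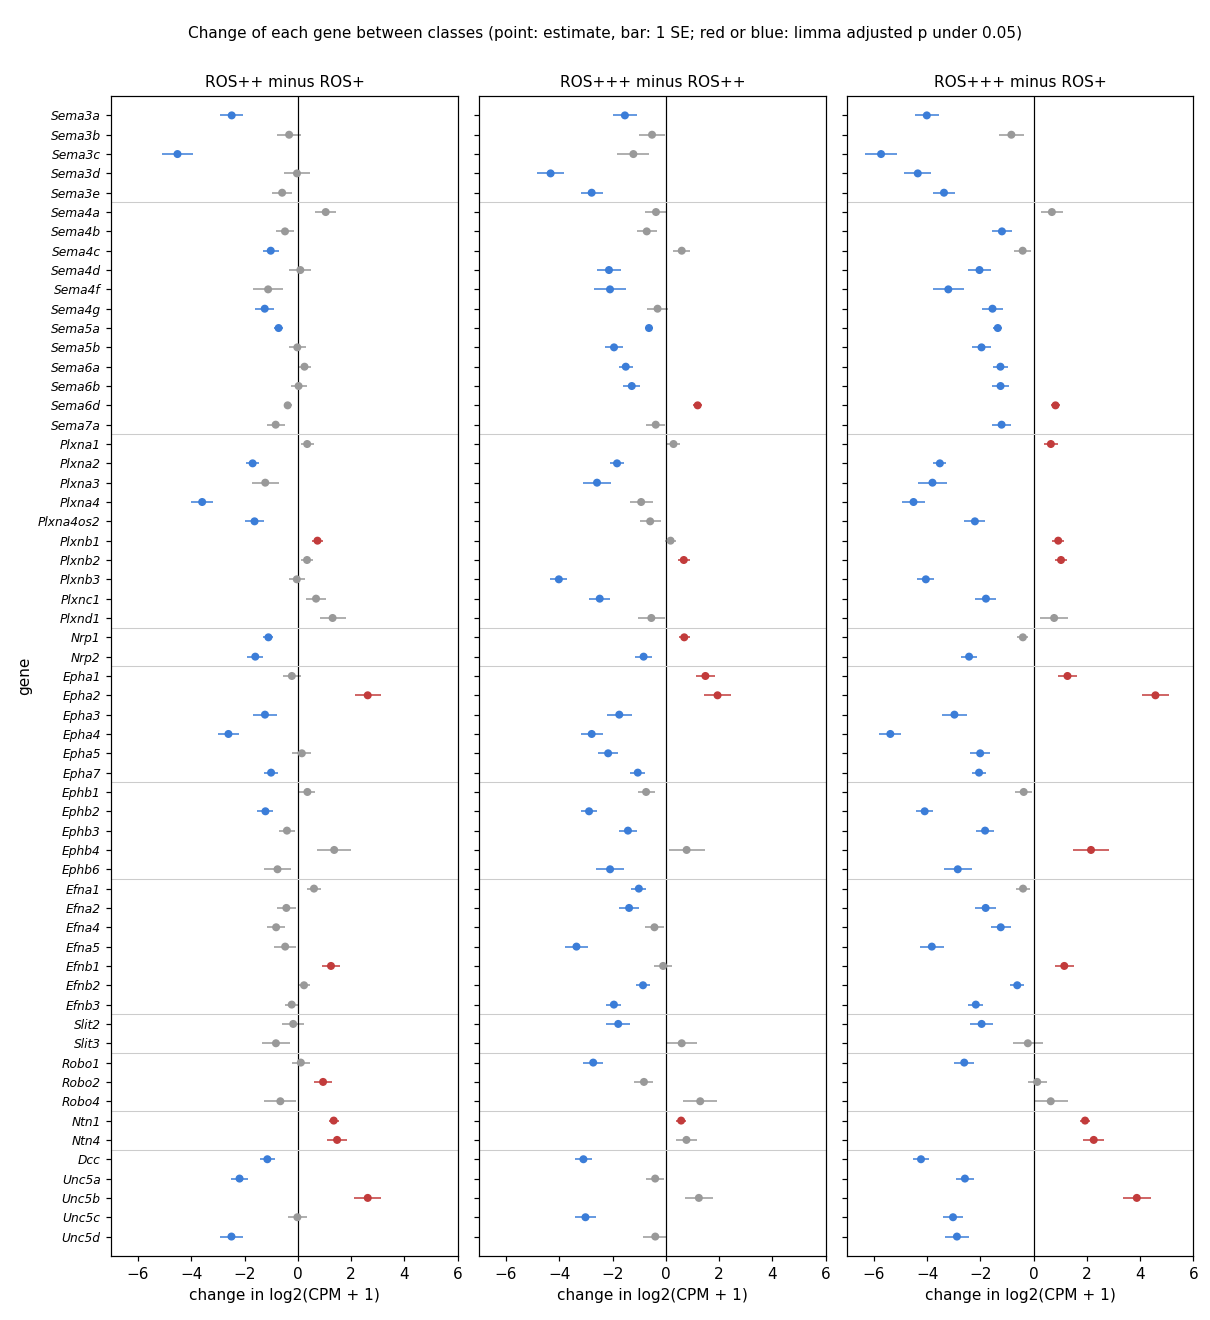
Difference between classes for each of the 59 genes on the log2(CPM + 1) scale, in 3 panels, 1 for each pair of classes, with bars for 1 standard error and colour (red higher, blue lower, grey not called) for adjusted p under 0.05. The right panel, which sets ROS+++ against ROS+, has 38 blue and 11 red genes.

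Class 3 semaphorins, the secreted ligands of the group, had the highest summed level per kb of the 11 families in ROS+ and a far lower one in ROS+++. Their 5 measured members summed to 73.8 ± 9.76 CPM per kb in ROS+ (SD, n = 5), 16.03 ± 1.87 in ROS++ (n = 5) and 2.58 ± 1.53 in ROS+++ (n = 4). Sema3c supplied 76.8% of the ROS+ sum and Sema3d 67.3% of the ROS++ sum. Sema3c, a ligand that binds both neuropilins, had 378, 369, 472, 316 and 486 CPM in ROS+, 16.9, 10.9, 34.1, 14.9 and 12.7 in ROS++, and 18.3, 13.6, 0.238 and 8.11 in ROS+++. Every ROS+ library was far above every other library, and ROS++ and ROS+++ overlapped. The difference was -4.52 ± 0.57 (adjusted p = 2.36e-05) between ROS++ and ROS+ and -5.73 ± 0.60 (adjusted p = 1.07e-06) between ROS+++ and ROS+. That between ROS+++ and ROS++ was -1.22 ± 0.60 (adjusted p = 0.124), and it passed when ROS+++ replicate 1 was left out (adjusted p = 0.0360).

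Sema3a, the founding repellent of the class, had 28.8, 29.9, 53.7, 26.8 and 34.2 CPM in ROS+, 11.3, 1.99, 3.58, 8.94 and 4.42 in ROS++, and 0.4296, 1.32, 3.76 and 0.315 in ROS+++. ROS+ again stood above both other classes without overlap, with a difference of -2.48 ± 0.43 (adjusted p = 2.90e-04) between ROS++ and ROS+ and -4.02 ± 0.46 (adjusted p = 8.20e-07) between ROS+++ and ROS+. Sema3d had 129.5, 101, 97.1, 97.4 and 57.3 CPM in ROS+, 72.2, 112, 90.01, 78.96 and 110.2 in ROS++, and 8.305, 1.42, 0.381 and 13.5 in ROS+++. Here ROS+ and ROS++ overlapped and ROS+++ lay below all of them: the difference was -0.03 ± 0.48 (adjusted p = 0.9698) between ROS++ and ROS+ and -4.33 ± 0.51 (adjusted p = 6.38e-06) between ROS+++ and ROS++. Sema3e, which can bind plexin D1 without a neuropilin, was also lower in ROS+++ than in ROS++, with a difference of -2.78 ± 0.41 (adjusted p = 4.10e-05), and the difference between ROS++ and ROS+ was -0.59 ± 0.39 (adjusted p = 0.277). Sema3b, at 0.948 to 3.07 CPM in ROS+ and 0.0477 to 2.405 in ROS+++, was not called in any comparison. It passed as lower in ROS+++ than in ROS+ when ROS+++ replicate 2 was left out (adjusted p = 0.0411).

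The lower levels of Sema3c and Sema3a in ROS++ ran beside the neuroblast markers, of which 10 of 11 were lower in ROS++ than in ROS+. Of 7 mature neuron markers, 4 were lower too. Sema3d differed between ROS+++ and ROS++, as did the oligodendrocyte precursor markers. Of those, 0 of 7 differed between ROS++ and ROS+ and 7 of 7 were lower in ROS+++ than in ROS++. Also lower in ROS+++ than in ROS++ were 9 of 11 neuroblast, 8 of 9 oligodendrocyte and 6 of 6 proliferation markers. The part of these marker groups in these results was not tested.

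Neuropilins are the binding subunits through which class 3 semaphorins reach plexins, and neuropilin-1 is also a coreceptor for VEGF. Nrp1 had 169, 172, 293, 197 and 237 CPM in ROS+, 88.9, 66.8, 101, 137 and 103 in ROS++, and 123, 185, 188 and 143 in ROS+++. The ROS++ libraries were all below the ROS+ libraries, and the ROS+++ libraries overlapped with both. Its difference was -1.10 ± 0.19 (adjusted p = 2.58e-04) between ROS++ and ROS+ and 0.69 ± 0.20 (adjusted p = 0.0109) between ROS+++ and ROS++, so that ROS++ was the lowest class, while the difference of -0.41 ± 0.20 (adjusted p = 0.0901) between ROS+++ and ROS+ was not called. With sets of consecutive library numbers from the titles as a block that last difference passed, at adjusted p = 0.0159. Nrp2 had 26.4, 40.1, 40.05, 35.9 and 40.6 CPM in ROS+, 13.5, 13.5, 15.01, 5.78 and 11.3 in ROS++, and 3.48, 5.74, 7.05 and 8.34 in ROS+++. ROS+ lay above the other classes without overlap, with -1.60 ± 0.29 (adjusted p = 4.65e-04) between ROS++ and ROS+ and -2.43 ± 0.31 (adjusted p = 3.20e-06) between ROS+++ and ROS+. The step between ROS+++ and ROS++, -0.83 ± 0.31 (adjusted p = 0.0421), was lost in 16 of 24 alternative analyses. Nrp1 made up 87.6% of the summed neuropilin level per kb in ROS+ and 96.9% in ROS+++.

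Plexins, the signalling receptors for semaphorins, differed by subfamily in their summed levels. Single genes did not all follow their subfamily: Plxnb3 was lower in ROS+++ than in ROS+, and Plxna1 was higher. The 4 plexin A genes summed to 32.3 ± 4.604 CPM per kb in ROS+, 11.9 ± 1.96 in ROS++ and 5.37 ± 1.42 in ROS+++ (SD), whereas the 3 plexin B genes summed to 25.6 ± 2.02, 31.5 ± 6.85 and 25.4 ± 4.15, with overlapping ranges. Within the plexin B sum the leading gene was Plxnb3 in ROS+ (50.7%) and in ROS++ (43.0%) and Plxnb2 in ROS+++ (61.0%).

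Plxna2, a plexin that binds class 6 semaphorins, had 144, 148, 183, 177 and 205 CPM in ROS+, 40.5, 45.1, 54.5, 64.96 and 57.7 in ROS++, and 14.5, 12.3, 7.91 and 25.5 in ROS+++. The 3 classes did not overlap, and the difference was -1.70 ± 0.23 (adjusted p = 2.46e-05) between ROS++ and ROS+ and -1.83 ± 0.25 (adjusted p = 1.86e-05) between ROS+++ and ROS++. Plxna4, which pairs with neuropilins and also binds class 6 semaphorins, had 82.96, 90.05, 104, 84.9 and 118 CPM in ROS+, 3.30, 13.3, 7.25, 4.86 and 9.88 in ROS++, and 1.24, 4.07, 1.57 and 9.68 in ROS+++. Its largest difference between neighbouring classes lay between ROS+ and ROS++, at -3.59 ± 0.40 (adjusted p = 2.31e-06), and the ROS++ and ROS+++ libraries overlapped, with -0.92 ± 0.43 (adjusted p = 0.0955). Plxna3 had 84.8, 121, 100.5, 95.5 and 136 CPM in ROS+, 29.4, 51.9, 41.3, 52.95 and 54.2 in ROS++, and 12.7, 10.3, 0.333 and 15.7 in ROS+++. No class overlapped another, and ROS+++ replicate 3 was far below the other ROS+++ libraries. The difference was -3.80 ± 0.53 (adjusted p = 1.31e-05) between ROS+++ and ROS+, and that between ROS++ and ROS+, -1.22 ± 0.50 (adjusted p = 0.0782), passed without ROS+++ replicate 3 and in 3 other alternatives, down to adjusted p = 1.95e-04. Plxna1 was the exception of the subfamily, with 17.02 ± 3.84 CPM in ROS+ and 26.8 ± 3.63 in ROS+++ (SD) and a difference of 0.64 ± 0.26 (adjusted p = 0.0424) that 7 of 24 alternatives lost.

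Plxnb3, a receptor for Sema5a found in the oligodendrocyte lineage, had 109.9, 94.4, 75.7, 82.5 and 59.4 CPM in ROS+, 88.3, 104, 147, 46.4 and 53.7 in ROS++, and 6.49, 3.44, 4.52 and 2.52 in ROS+++. ROS+ and ROS++ overlapped and every ROS+++ library was below both, with a difference of -0.04 ± 0.30 (adjusted p = 0.944) between ROS++ and ROS+ and -4.02 ± 0.31 (adjusted p = 9.84e-08) between ROS+++ and ROS++. Plxnb2, a receptor for class 4 semaphorins, ran the other way, with 39.7, 41.9, 69.1, 75.7 and 72.9 CPM in ROS+, 67.6, 51.8, 81.4, 88.8 and 85.1 in ROS++, and 94.7, 149, 122 and 114 in ROS+++. Every ROS+++ library was above every ROS+ and ROS++ library, at 1.02 ± 0.22 (adjusted p = 7.38e-04) between ROS+++ and ROS+. The difference between ROS+++ and ROS++, 0.68 ± 0.22 (adjusted p = 0.0223), was lost without ROS++ replicate 2 or without ROS+++ replicate 2 (adjusted p up to 0.0794). Plxnb1, the Sema4d receptor, was higher in ROS++ than in ROS+ by 0.74 ± 0.21 (adjusted p = 0.0118) and in ROS+++ than in ROS+ by 0.92 ± 0.22 (adjusted p = 0.00168).

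Of the other plexins, Plxnc1, the receptor for Sema7a, ranged from 21.5 to 58.5 CPM in ROS++ and from 1.81 to 12.6 in ROS+++, a difference of -2.48 ± 0.39 (adjusted p = 8.74e-05). Plxnd1, known for its role in blood vessels, ranged from 0.240 to 5.29 CPM in ROS+ and from 5.01 to 19.4 in ROS++. Its difference of 1.31 ± 0.49 (adjusted p = 0.0505) was just short of the threshold and passed in 11 of 24 alternatives. The antisense gene Plxna4os2 was at 3.07 to 7.25 CPM in ROS+ and at 0 in 3 of the other libraries, and was lower in ROS++ than in ROS+, with a difference of -1.62 ± 0.37 (adjusted p = 0.00293). The library method as described does not mark the strand, so reads of Plxna4 and of its antisense genes cannot be told apart where they overlap. In annotated exons, Plxna4os2 shared no bases with another gene, and Plxna4 shared 0.78% of its bases, with Plxna4os3.

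Semaphorins of classes 4 to 7, which are bound to the membrane, were mostly lower in ROS+++ than in ROS+, with Sema6d as the exception. Of the 12 measured, 3 were lower in ROS++ than in ROS+ and none was higher. These calls were 25.0% of the 12, against 29.6% of all genes. Against ROS+, 9 were lower in ROS+++ and 1 was higher (all genes: 40.0% and 19.2%). Against ROS++, 6 were lower and 1 higher in ROS+++ (all genes: 29.2% and 9.89%). Their summed level was 57.3 ± 5.23 CPM per kb in ROS+, 48.7 ± 7.57 in ROS++ and 38.5 ± 3.19 in ROS+++ (SD), and Sema6d made up 21.9% of it in ROS+ and 57.2% in ROS+++.

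Sema6d, a transmembrane ligand of plexin A1, was the one that rose, with 113, 120.5, 145, 119 and 165 CPM in ROS+, 114, 77.1, 91.2, 136 and 94.02 in ROS++, and 243, 217, 254 and 215 in ROS+++. All ROS+++ libraries were above all others, with 0.82 ± 0.16 (adjusted p = 2.77e-04) between ROS+++ and ROS+ and 1.20 ± 0.16 (adjusted p = 1.54e-05) between ROS+++ and ROS++. Sema5a, a transmembrane ligand with thrombospondin repeats, had 239.6, 200.5, 175, 216 and 216 CPM in ROS+, 131, 145, 121, 135 and 102 in ROS++, and 119, 79.8, 65.9 and 69.2 in ROS+++. ROS+ did not overlap with ROS++ or ROS+++, and the difference was -0.72 ± 0.15 (adjusted p = 0.001703) between ROS++ and ROS+. The further difference of -0.63 ± 0.16 (adjusted p = 0.005302) between ROS+++ and ROS++ was lost under all 3 other scalings (adjusted p up to 0.328). Its relative Sema5b had 50.5, 44.5, 45.4, 65.8 and 63.6 CPM in ROS+, 61.9, 57.3, 60.3, 29.9 and 62.4 in ROS++, and 20.6, 12.2, 4.57 and 22.8 in ROS+++. ROS+ and ROS++ overlapped and ROS+++ was below both, with -0.02 ± 0.33 (adjusted p = 0.974) between ROS++ and ROS+ and -1.94 ± 0.35 (adjusted p = 2.70e-04) between ROS+++ and ROS++.

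The other members of classes 4 to 7 followed one of these courses or none. Sema4d, Sema4f, Sema6a and Sema6b were lower in ROS+++ than in ROS++, with log2 differences of -2.13, -2.09, -1.50 and -1.28, and none of them differed between ROS++ and ROS+. The call for Sema4f was lost with limma-voom (adjusted p = 0.0937). Sema4g and Sema4c were lower in ROS++ than in ROS+, with differences of -1.24 and -1.02, and the call for Sema4c, at 0.164 to 1.21 CPM in ROS++, was lost without ROS+ replicate 5 (adjusted p = 0.0517). Sema7a, attached to the membrane by a lipid anchor, and Sema4b were lower in ROS+++ than in ROS+, with differences of -1.21 and -1.19, the latter lost under 2 scalings or without ROS+++ replicate 3 (adjusted p up to 0.0772). Sema4a was not called in any comparison, at 3.71 to 7.002 CPM in ROS+ and 7.75 to 25.03 in ROS++, although 9 of 24 alternatives called it higher in ROS++.

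**Figure D3:**
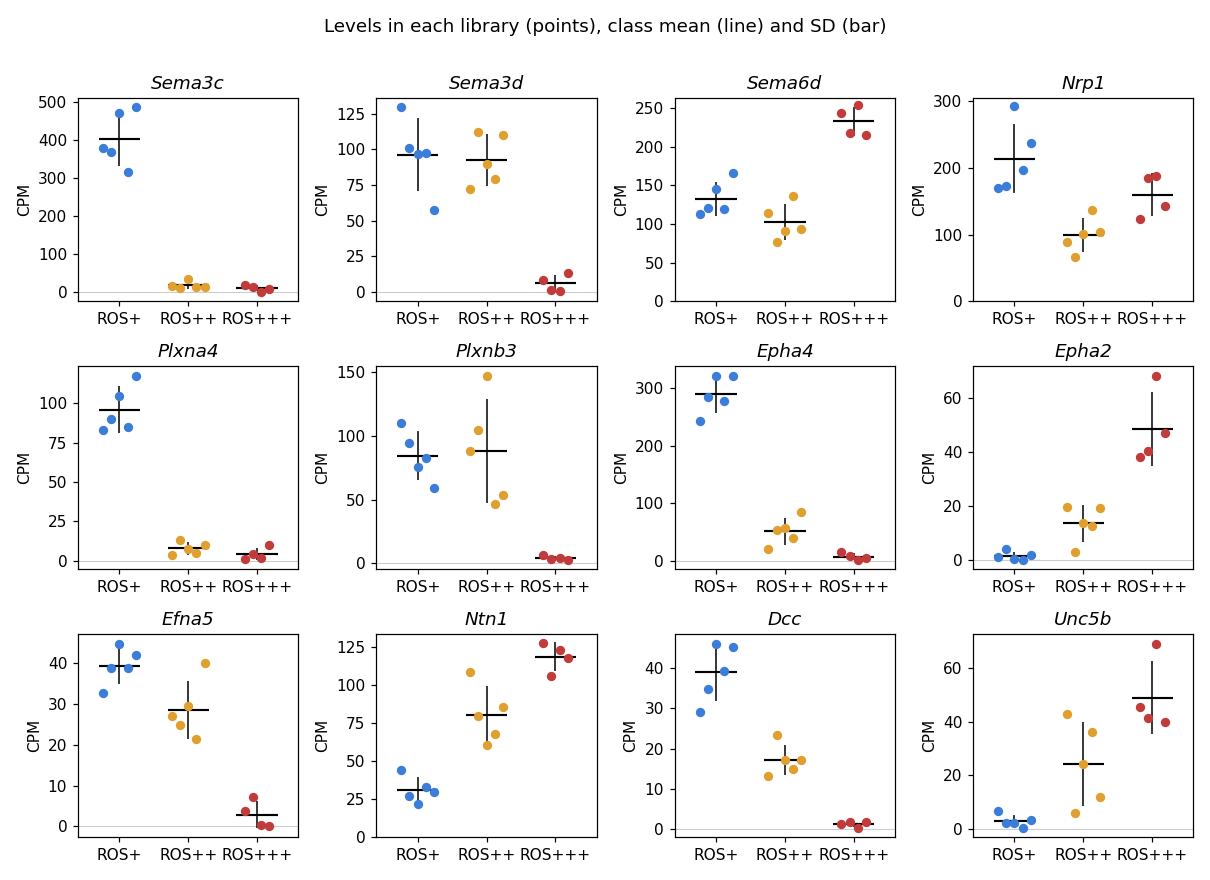
CPM of 12 guidance genes in each library (points) by ROS class on linear axes, with a line at the class mean and a bar for the SD. Sema3c, Plxna4 and Epha4 drop between ROS+ and ROS++, Sema3d, Plxnb3 and Efna5 between ROS++ and ROS+++, and Epha2, Ntn1 and Unc5b are highest in ROS+++.

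Eph receptors, the largest receptor family here with 11 measured members, exchanged their leading gene. Their sum was 59.5 ± 6.85 CPM per kb in ROS+, 28.4 ± 3.004 in ROS++ and 21.6 ± 2.39 in ROS+++ (SD). Epha4 made up 60.4% of it in ROS+, and Epha2 made up 47.8% in ROS+++. In ROS+++, 7 of the 11 were lower than in ROS+ and 3 higher (all genes: 40.0% and 19.2%). Against ROS++, 7 were lower in ROS+++ and 2 higher (all genes: 29.2% and 9.89%). In ROS++, 4 were lower than in ROS+ and 1 higher (all genes: 13.2% and 16.4%).

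Epha4, a receptor for ephrins of both the A and the B type, had 243, 285, 321, 278 and 321 CPM in ROS+, 20.3, 53.3, 57.1, 40.7 and 85.7 in ROS++, and 15.8, 7.75, 1.86 and 4.41 in ROS+++. The classes did not overlap, and the difference was -2.60 ± 0.39 (adjusted p = 7.65e-05) between ROS++ and ROS+ and -2.78 ± 0.42 (adjusted p = 5.54e-05) between ROS+++ and ROS++. Epha2, an ephrin-A receptor found in many epithelia and in vessels, had the opposite course, with 1.15, 3.84, 0.134, 0.0426 and 1.78 CPM in ROS+, 19.6, 2.79, 13.4, 12.4 and 19.3 in ROS++, and 38.2, 40.3, 68.3 and 46.9 in ROS+++. Every ROS+++ library was above every other library, and ROS++ replicate 2 was within the range of ROS+. The difference was 2.63 ± 0.49 (adjusted p = 4.81e-04) between ROS++ and ROS+ and 4.57 ± 0.52 (adjusted p = 6.75e-07) between ROS+++ and ROS+. That between ROS+++ and ROS++, 1.94 ± 0.52 (adjusted p = 0.00597), was lost on the log2 values as deposited (adjusted p = 0.0889). Epha7 had 49.2, 46.2, 44.3, 39.2 and 47.2 CPM in ROS+, 28.8, 18.3, 17.9, 24.8 and 21.99 in ROS++, and 15.3, 9.32, 14.1 and 4.96 in ROS+++. Its classes did not overlap, with -1.003 ± 0.26 (adjusted p = 0.007602) between ROS++ and ROS+, and a difference of -1.05 ± 0.28 (adjusted p = 0.00614) between ROS+++ and ROS++ that was lost under 2 other scalings (adjusted p up to 0.0894).

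Epha3 and Epha5, both receptors for ephrin-A ligands, were lower in ROS+++ than in ROS++, with log2 differences of -1.75 and -2.16. For Epha3 the difference between ROS++ and ROS+, -1.23 ± 0.44 (adjusted p = 0.0435), was lost in 11 of 24 alternatives. Epha5 had 31.2 to 51.9 CPM in ROS+ and 25.03 to 50.3 in ROS++, with a difference of 0.15 ± 0.36 (adjusted p = 0.789). Epha1 was low throughout, at 0.657 to 1.204 CPM in ROS+ and 2.52 to 7.398 in ROS+++. It was higher in ROS+++ than in ROS+ by 1.27 ± 0.36 (adjusted p = 0.00592), a call lost on the log2 values as deposited (adjusted p = 0.0814).

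Among the B receptors, which bind transmembrane ephrins, Ephb2 had 17.3, 25.8, 29.3, 30.1 and 37.3 CPM in ROS+, 11.5, 10.9, 12.2, 7.26 and 15.2 in ROS++, and 0.668, 0.344, 0.619 and 1.02 in ROS+++. The classes did not overlap, and the difference was -1.22 ± 0.30 (adjusted p = 0.00474) between ROS++ and ROS+ and -2.88 ± 0.32 (adjusted p = 2.22e-06) between ROS+++ and ROS++. Ephb3 had 16.9, 18.3, 18.1, 25.8 and 17.7 CPM in ROS+, 6.18, 14.1, 15.9, 20.3 and 19.6 in ROS++, and 4.58, 3.53, 5.52 and 5.27 in ROS+++, and only the ROS+++ libraries stood apart, at -1.42 ± 0.33 (adjusted p = 0.00223) against ROS++. Ephb6, a receptor without kinase activity, had 8.38, 14.3, 15.7, 27.5 and 23.3 CPM in ROS+, 2.72, 20.98, 8.74, 12.1 and 10.4 in ROS++, and 4.68, 0.491, 0.191 and 2.44 in ROS+++. Its difference was -2.85 ± 0.53 (adjusted p = 1.82e-04) between ROS+++ and ROS+, and -0.76 ± 0.50 (adjusted p = 0.279) between ROS++ and ROS+. Ephb1 had 35.3, 13.1, 40.2, 31.9 and 34.3 CPM in ROS+, 43.5, 25.8, 54.8, 42.9 and 28.3 in ROS++, and 20.2, 25.3, 14.9 and 31.2 in ROS+++. Its ranges overlapped across the classes and no comparison called it, with -0.74 ± 0.32 (adjusted p = 0.0769) between ROS+++ and ROS++, a difference that passed without ROS+ replicate 2 or without ROS+++ replicate 4 (adjusted p down to 0.0346).

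Ephb4, a receptor for ephrin-B2 known from veins, ranged from 0.810 to 5.04 CPM in ROS+, from 0.109 to 12.2 in ROS++ and from 3.62 to 21.3 in ROS+++. It was higher in ROS+++ than in ROS+ by 2.15 ± 0.67 (adjusted p = 0.0106). Against ROS+, the difference in ROS++ was 1.37 ± 0.63 (adjusted p = 0.116), and without ROS++ replicate 5, the one ROS++ library near 0, it passed at adjusted p = 0.00291. The rise of Epha2, Epha1 and Ephb4 ran beside several marker groups. Higher in ROS+++ than in ROS+ were 12 of 12 mural and 5 of 10 endothelial markers. So were 12 of 12 markers of microglia and macrophages, 9 of 10 of radial glia-like cells and 6 of 8 of leptomeningeal fibroblasts. The part of these groups in the rise was not tested.

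Ephrins, the ligands of the Eph receptors, were lower mainly in ROS+++. Of the 7 measured, 1 (Efnb1) was called between ROS++ and ROS+, where it was higher, against 29.6% of all genes called. In ROS+++, 5 were lower than in ROS++, against 29.2% of all genes. Their sum was 39.8 ± 6.23 CPM per kb in ROS+, 43.8 ± 4.76 in ROS++ and 17.3 ± 4.204 in ROS+++ (SD), with overlap between ROS+ and ROS++.

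Efna5, a lipid-anchored ephrin-A, had 32.8, 38.7, 44.8, 38.8 and 41.9 CPM in ROS+, 26.97, 24.8, 29.4, 21.5 and 40.0 in ROS++, and 3.72, 7.21, 0.429 and 0.157 in ROS+++. ROS+ and ROS++ overlapped and ROS+++ lay below both, with -0.47 ± 0.42 (adjusted p = 0.437) between ROS++ and ROS+ and -3.35 ± 0.45 (adjusted p = 1.61e-05) between ROS+++ and ROS++. Efnb3, a transmembrane ephrin, had 23.2, 28.9, 30.7, 38.9 and 33.97 CPM in ROS+, 33.6, 18.7, 28.4, 25.1 and 26.9 in ROS++, and 6.06, 3.34, 6.57 and 9.45 in ROS+++. It took the same course, at -0.23 ± 0.26 (adjusted p = 0.561) and -1.95 ± 0.28 (adjusted p = 3.36e-05) in these comparisons. Efna2 had 2.73, 2.496, 4.64, 2.77 and 3.89 CPM in ROS+, 5.24, 3.54, 1.49, 1.12 and 1.04 in ROS++, and 0, 0.196, 0 and 0.787 in ROS+++. These low levels were lower in ROS+++ than in ROS++, with a difference of -1.38 ± 0.38 (adjusted p = 0.00797).

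Efna1, the ephrin with the highest level per kb in all 3 classes, had 20.2, 33.1, 18.5, 33.9 and 28.1 CPM in ROS+, 34.1, 34.6, 35.5, 47.8 and 51.9 in ROS++, and 15.8, 31.3, 23.2 and 12.2 in ROS+++. All ROS++ libraries were above all ROS+ and all ROS+++ libraries, but the difference of 0.61 ± 0.26 (adjusted p = 0.0926) between ROS++ and ROS+ was not called. That of -1.01 ± 0.28 (adjusted p = 0.00796) between ROS+++ and ROS++ was lost under 2 other scalings (adjusted p up to 0.108). Its share of the ephrin sum was 36.8% in ROS+, 50.9% in ROS++ and 65.2% in ROS+++. Efnb1 was higher in ROS++ than in ROS+ by 1.25 ± 0.33 (adjusted p = 0.00831) and in ROS+++ than in ROS+ by 1.15 ± 0.35 (adjusted p = 0.00955). Efnb2 was lower in ROS+++ than in ROS+, with a difference of -0.62 ± 0.25 (adjusted p = 0.0435) that 13 of 24 alternatives lost. Against ROS++ its difference was -0.85 ± 0.25 (adjusted p = 0.0124), a call lost under 3 scalings (adjusted p up to 0.157). Efna4 was at 0.948 to 4.22 CPM in ROS+ and 0 to 0.315 in ROS+++, a difference of -1.24 ± 0.37 (adjusted p = 0.00827).

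Both netrins were higher in ROS+++ than in ROS+, while of Dcc and the 4 Unc5 receptors 4 were lower and 1, Unc5b, was higher. Of all genes, 19.2% were higher and 40.0% lower in that comparison. Ntn1, the secreted netrin that attracts or repels depending on the receptor, had 43.9, 26.9, 21.8, 32.95 and 30.02 CPM in ROS+, 108, 79.8, 60.6, 67.6 and 85.7 in ROS++, and 127, 106, 123 and 118 in ROS+++. Every ROS++ and ROS+++ library was above every ROS+ library, with 1.35 ± 0.19 (adjusted p = 2.96e-05) between ROS++ and ROS+ and 1.93 ± 0.20 (adjusted p = 2.66e-07) between ROS+++ and ROS+. The difference of 0.58 ± 0.20 (adjusted p = 0.0296) between ROS+++ and ROS++ was lost without ROS++ replicate 3, ROS++ replicate 4 or ROS+++ replicate 1, 3 or 4 (adjusted p up to 0.0756). Ntn4, a laminin-related netrin of basement membranes, had 1.46, 1.06, 0.714, 0.981 and 0.281 CPM in ROS+, 6.86, 2.58, 3.71, 5.32 and 3.38 in ROS++, and 3.96, 7.21, 14.7 and 8.58 in ROS+++. It too was lowest in ROS+ without overlap, with 1.48 ± 0.36 (adjusted p = 0.00493) and 2.25 ± 0.39 (adjusted p = 7.84e-05) against ROS+. Both ran beside the rise of the mural markers. Markers of microglia and macrophages (12 of 12), radial glia-like cells (9 of 10) and leptomeningeal fibroblasts (6 of 8) were also higher in ROS+++ than in ROS+. The part of these groups was not tested.

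Dcc, the receptor through which netrin-1 attracts axons, had 29.1, 34.9, 46.2, 39.4 and 45.3 CPM in ROS+, 13.2, 23.3, 17.2, 14.9 and 17.1 in ROS++, and 1.19, 1.62, 0.191 and 1.81 in ROS+++. The classes did not overlap and descended with ROS, with -3.09 ± 0.31 (adjusted p = 8.88e-07) between ROS+++ and ROS++. The difference of -1.14 ± 0.29 (adjusted p = 0.00625) between ROS++ and ROS+ was lost on the log2 values as deposited (adjusted p = 0.0718). Unc5b, an Unc5 receptor also found in vessels, had 6.72, 2.21, 2.01, 0.256 and 3.42 CPM in ROS+, 43.0, 5.96, 24.3, 36.1 and 11.9 in ROS++, and 45.4, 41.5, 69.2 and 39.9 in ROS+++. Every ROS+++ library was above every ROS+ library, and ROS++ overlapped with both and was widely spread. Its difference was 2.63 ± 0.50 (adjusted p = 6.05e-04) between ROS++ and ROS+, 3.87 ± 0.53 (adjusted p = 6.68e-06) between ROS+++ and ROS+, and 1.24 ± 0.53 (adjusted p = 0.0714) between ROS+++ and ROS++, the last passing in 8 of 24 alternatives.

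Unc5c, a receptor for the repellent response, had 46.5, 38.8, 36.4, 41.9 and 36.8 CPM in ROS+, 33.4, 42.9, 38.7, 29.9 and 57.6 in ROS++, and 2.67, 7.12, 1.00 and 9.52 in ROS+++. ROS+ and ROS++ overlapped and ROS+++ was below both, with -0.02 ± 0.36 (adjusted p = 0.979) between ROS++ and ROS+ and -3.02 ± 0.38 (adjusted p = 8.46e-06) between ROS+++ and ROS++. Unc5a had 7.07, 4.42, 10.1, 4.01 and 7.55 CPM in ROS+, 0.157, 0.805, 0.682, 1.28 and 0.327 in ROS++, and 0.477, 0, 0.381 and 0.0787 in ROS+++. It was lower in ROS++ than in ROS+, with a difference of -2.19 ± 0.32 (adjusted p = 4.55e-05), and so was Unc5d, with -2.49 ± 0.42 (adjusted p = 2.00e-04). The sum of Dcc and the 4 Unc5 genes was 8.19 ± 1.11 CPM per kb in ROS+, 7.56 ± 1.75 in ROS++ and 8.28 ± 1.99 in ROS+++ (SD), with overlapping ranges. Its leading gene was Dcc in ROS+, with 36.1%, and Unc5b in ROS++ and ROS+++, with 51.3% and 94.6%. These shares depend on merged exon length, which is 6258 bases for Unc5b, 13171 for Dcc and 19135 for Unc5c.

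**Figure D4:**
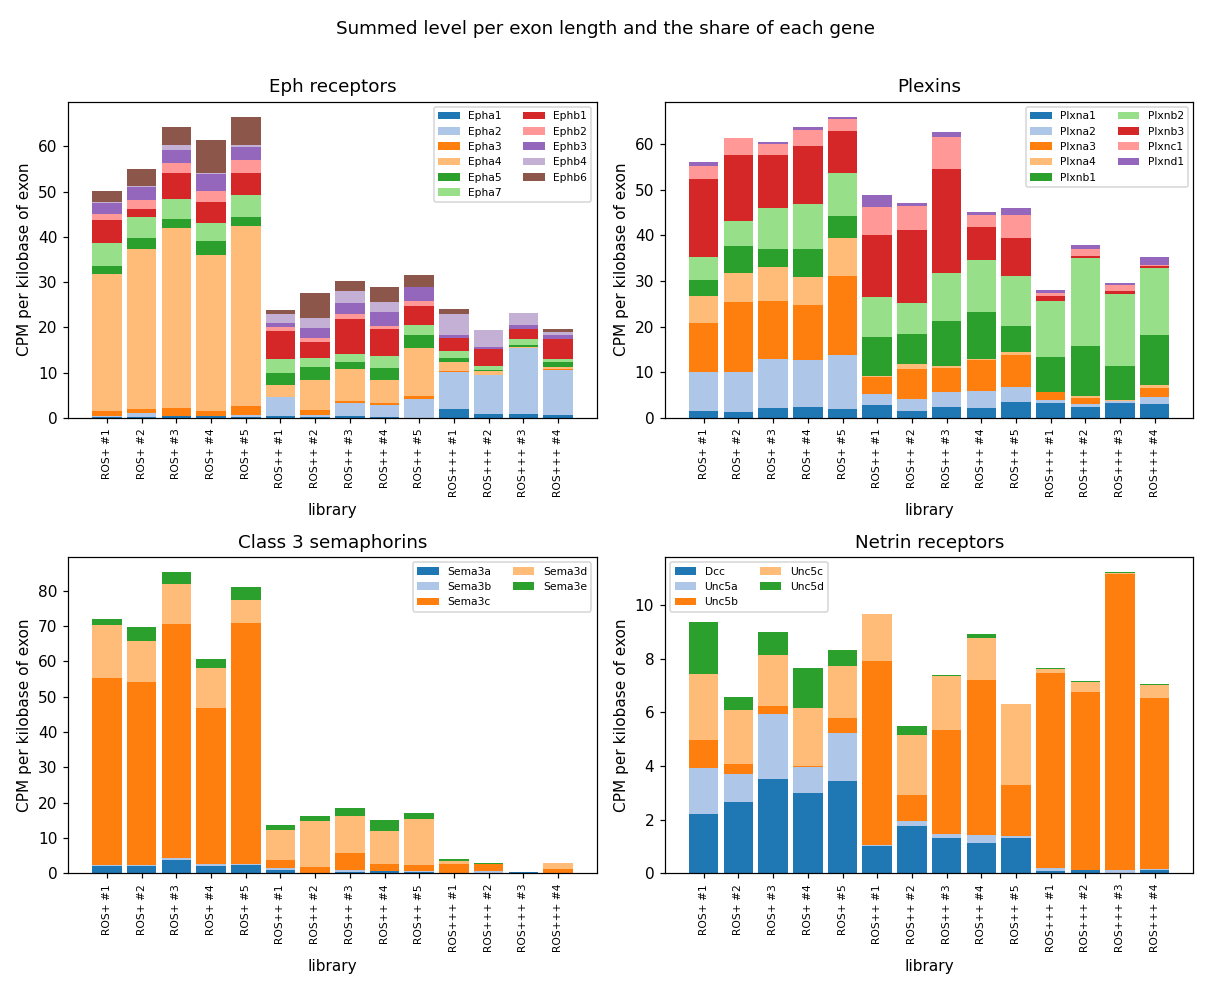
CPM per kb of exon in each library, stacked by gene for the Eph receptors, plexins (without the antisense gene), class 3 semaphorins and netrin receptors. The netrin receptor columns overlap in height between classes but consist mainly of Unc5b in ROS+++ (94.6%), while the class 3 semaphorin columns are down to 2.58 ± 1.53 CPM per kb (SD) in ROS+++.

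Slits, secreted repellents, and their Robo receptors had the lowest summed levels per kb of the 11 families in ROS+. That ranking depends on merged exon length, which is 25433 bases for Slit2, 16511 for Robo1 and 16983 for Robo2, against 6277 for Ntn1. Slit2 had 12.3, 10.8, 9.098, 12.8 and 14.4 CPM in ROS+, 9.43, 18.4, 3.33, 9.25 and 19.6 in ROS++, and 1.002, 3.98, 1.29 and 4.09 in ROS+++. ROS++ overlapped with both other classes, ROS+++ was below ROS+, and the difference was -1.96 ± 0.45 (adjusted p = 0.00111) between ROS+++ and ROS+ and -1.79 ± 0.45 (adjusted p = 0.00405) between ROS+++ and ROS++. Slit3 had 3.20, 1.73, 3.702, 5.41 and 3.096 CPM in ROS+, 5.604, 0.751, 1.53, 1.53 and 0.109 in ROS++, and 0.143, 5.69, 1.62 and 7.95 in ROS+++. Its ROS++ and ROS+++ libraries were widely scattered, and no comparison called it, with -0.22 ± 0.57 (adjusted p = 0.757) between ROS+++ and ROS+.

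Robo1, a Slit receptor of neurons and glia, had 30.9, 29.3, 22.4, 35.9 and 22.7 CPM in ROS+, 35.2, 30.9, 17.5, 31.5 and 41.2 in ROS++, and 7.303, 2.601, 1.19 and 6.53 in ROS+++. ROS+ and ROS++ overlapped and ROS+++ was below both, with 0.11 ± 0.35 (adjusted p = 0.8399) between ROS++ and ROS+ and -2.73 ± 0.37 (adjusted p = 1.86e-05) between ROS+++ and ROS++. Robo2 had 16.6, 8.35, 10.4, 18.5 and 9.38 CPM in ROS+, 14.6, 25.8, 30.2, 24.5 and 29.6 in ROS++, and 23.6, 17.5, 6.67 and 10.9 in ROS+++. ROS++ had the highest mean but overlapped with both other classes, and its difference of 0.95 ± 0.34 (adjusted p = 0.0406) against ROS+ was lost in 8 of 24 alternatives. Robo4, the Robo of endothelial cells, had 3.44, 1.06, 2.899, 4.48 and 0.938 CPM in ROS+, 0.367, 2.84, 4.26, 0.409 and 0 in ROS++, and 0.191, 5.05, 6.19 and 12.04 in ROS+++. Its libraries overlapped in all 3 classes, and the difference of 1.29 ± 0.63 (adjusted p = 0.115) between ROS+++ and ROS++ passed without ROS+++ replicate 1 (adjusted p = 0.00970).

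Genes that work around these ligands and receptors were counted in 3 lists. For comparison, 16.4% of all genes were higher and 13.2% lower in ROS++ than in ROS+, 19.2% higher and 40.0% lower in ROS+++ than in ROS+, and 9.89% higher and 29.2% lower in ROS+++ than in ROS++. Of 23 measured adhesion molecules and coreceptors of guidance, 12 differed between ROS++ and ROS+ (52.2%, against 29.6% of all genes), with 4 higher and 8 lower in ROS++. Between ROS+++ and ROS+ 21 differed (91.3%, against 59.2%), with 5 higher and 16 lower in ROS+++, and between ROS+++ and ROS++ 17 (73.9%, against 39.1%), with 4 higher and 13 lower. Dscam, a netrin-binding adhesion molecule, was at 88.4 ± 18.6 CPM in ROS+, 87.6 ± 35.2 in ROS++ and 1.803 ± 1.97 in ROS+++ (SD), a difference of -5.15 ± 0.39 (adjusted p = 6.70e-08) between ROS+++ and ROS++. Sdc2, a heparan sulphate proteoglycan, was at 142 ± 32.9, 406 ± 88.8 and 1024 ± 69.9 CPM, higher in ROS+++ than in ROS+ by 2.87 ± 0.16 (adjusted p = 1.40e-10). Islr2, a membrane protein of growing axons, was at 10.1 ± 3.52 CPM in ROS+ and 0.4097 ± 0.305 in ROS++, a difference of -2.96 ± 0.30 (adjusted p = 7.57e-07). The list's median difference between ROS+++ and ROS+ was -1.80.

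Cytoplasmic effectors carry receptor signals to the cytoskeleton. Of 54 measured, 20 differed between ROS++ and ROS+ (37.0%, against 29.6% of all genes), with 11 higher and 9 lower in ROS++. Against ROS+, 39 differed in ROS+++ (72.2%, against 59.2%), with 18 higher and 21 lower, and against ROS++ 28 (51.9%, against 39.1%), with 12 higher and 16 lower. The median difference between ROS+++ and ROS+ was -0.44, as it was over all genes. Crmp1, a mediator of Sema3a signalling, was at 207 ± 30.6 CPM in ROS+, 48.5 ± 15.6 in ROS++ and 2.63 ± 1.54 in ROS+++ (SD), and its difference between ROS+++ and ROS+ was -5.94 ± 0.30 (adjusted p = 4.59e-11). Its relative Dpysl4 had a difference of -5.01 ± 0.29 (adjusted p = 1.61e-10) in that comparison. Both genes named are among the 21 that were lower.

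Of 28 measured other guidance cues and receptors, 13 differed between ROS++ and ROS+ (46.4%, against 29.6% of all genes), with 8 higher and 5 lower in ROS++. In ROS+++, 23 differed from ROS+ (82.1%, against 59.2%), with 6 higher and 17 lower, and 19 from ROS++ (67.9%, against 39.1%), with 5 higher and 14 lower. Neo1, the second netrin receptor of the Dcc type, was at 186 ± 18.8 CPM in ROS+, 85.5 ± 12.7 in ROS++ and 22.1 ± 7.84 in ROS+++ (SD), a difference of -3.08 ± 0.20 (adjusted p = 6.50e-10) between ROS+++ and ROS+. The chemokine Cxcl12 was at 12.1 ± 3.83, 65.6 ± 27.6 and 243 ± 36.5 CPM, higher by 4.26 ± 0.29 (adjusted p = 1.18e-09), and its scavenging receptor Ackr3 at 56.98 ± 9.34, 215 ± 89.4 and 872 ± 110.2 CPM, higher by 3.92 ± 0.24 (adjusted p = 2.78e-10). The median difference of this list between ROS+++ and ROS+ was -0.93.

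Across families, ligands and receptors were called in similar proportion where ROS+++ was compared. Against ROS+, 4 of 28 ligands were higher in ROS+++ and 19 lower (all genes: 19.2% and 40.0%). Of 30 receptors, 7 were higher and 18 lower. Against ROS++, 2 ligands were higher in ROS+++ and 15 lower (all genes: 9.89% and 29.2%). Among the receptors, 4 were higher and 15 lower. Between ROS++ and ROS+, 3 ligands were higher and 5 lower, and 4 receptors were higher and 11 lower (all genes: 16.4% and 13.2%). In that comparison 8 of 28 ligands and 15 of 30 receptors were called, against 29.6% of all genes. The share of receptors was above that of all genes, and the share of ligands was not. Summed over ligands, the level was 177 ± 11.3 CPM per kb in ROS+, 123 ± 6.79 in ROS++ and 80.2 ± 2.395 in ROS+++ (SD). Over receptors it was 157 ± 14.3, 101 ± 8.99 and 81.7 ± 5.398. These sums use library totals and were not recomputed under the other scalings. The ligand with the largest share of its sum was Sema3c in ROS+ (32.0%), Efna1 in ROS++ (18.1%) and Sema6d in ROS+++ (27.4%). The receptor was Epha4 in ROS+ (22.9%), Plxnb3 in ROS++ (13.4%) and Nrp1 in ROS+++ (20.0%).

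Exon sequence shared with another gene could affect a few of these values. Of the 59 genes, 8 shared over 1% of their exon bases with another annotated gene and none over 20%. The largest shares were 10.7% for Plxna1 and 10.5% for Efna4.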

How the data were processed

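RNA of sorted GFP-positive cells was copied to cDNA from its poly-A end with template switching, amplified and sequenced, per the labels' protocols. The submitters' processing notes name STAR, edgeR and the build mm10, with no versions or roles. The authors deposited log2 values per gene and library: log2 CPM with a small prior, from the values themselves, since the CPM of each library fell on whole multiples of 1 read to within rounding. Genes that share sequence or overlap on opposite strands could therefore share reads, and amplified reads without molecular identifiers are not independent molecules.

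Reads per gene were recovered from the deposited values, and CPM was computed from them. The test was limma 3.58.1 (R 4.3.3; trend and robust options) on log2(CPM + 1), with 1 mean per ROS class over all 14 libraries (11 residual degrees of freedom), for the 15102 genes with at least 1 CPM in at least 4 libraries (17 removed). P-values were adjusted over these genes by the Benjamini-Hochberg method, and an adjusted p under 0.05 was a call. The script was checked on simulated data. Libraries held 12704227 to 25313902 reads. No 2 libraries of a class agreed within sampling noise (chi-square per degree of freedom 33.8 to 161 over 26 pairs, Pearson's r across genes 0.873 to 0.967).

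Gene symbols, positions and exon lengths come from GENCODE, and 15060 of the 15119 genes matched; promoters come from RefSeq. Values in every library are given, in each family, for up to 3 members with the smallest p in the F-test and for the member with the highest mean CPM per kb in each class; of each pathway list, up to 3 called genes with the smallest such p are named. The third such gene of the cytoplasmic effectors is not reported here. Members, lists, tests and this rule were chosen with earlier results of these data known. Alternatives were 2 other pseudocounts, 2 filters, 3 scalings, limma-voom, a block, only the classes compared, and each library left out. All expression columns were mapped to a sample.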

Additional observations from a re-analysis of the deposited data

Results flagged for a closer look

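For 12 of the 177 sets of libraries examined (59 genes in 3 classes), 1 library stood apart from the others of its class by more of the class's range than Dixon's 95% limit allows. Gap and range were taken on the log2(CPM + 1) scale, which widens gaps at low levels, and the levels are printed as CPM. Chance flags about 1 in 20 such sets, and 12 of 177 is 6.78%. Low libraries were the more common. In ROS++ replicate 1, Sema4f was at 0.210 CPM, where the other 4 libraries had 6.70 to 14.7. Epha2 in ROS++ replicate 2 was at 2.79 CPM against 12.4 to 19.6 in the others, and Epha5 in ROS++ replicate 3 at 25.0 against 45.7 to 50.3. Sema5b in ROS++ replicate 4 was at 29.9 CPM against 57.3 to 62.4. Ephb4 in ROS++ replicate 5 was at 0.109 CPM against 9.59 to 12.2, and without that library its difference between ROS++ and ROS+ passed (limma, adjusted p = 0.00291). In ROS+++, Sema4g in replicate 2 was at 5.06 CPM against 9.64 to 10.5, and Plxna3 in replicate 3 was at 0.333 CPM against 10.3 to 15.7.

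In ROS+, Plxnd1 in replicate 2 was at 0.24 CPM against 3.24 to 5.29, Ephb1 in the same library was at 13.1 CPM against 31.9 to 40.2, and Nrp2 in replicate 1 was at 26.4 CPM against 35.9 to 40.6. High libraries were Plxna4os2 in ROS+ replicate 2, at 7.25 CPM against 3.07 to 3.75, and Ephb3 in ROS+ replicate 4, at 25.8 CPM against 16.9 to 18.3. The library flagged most often was ROS+ replicate 2, with Plxnd1, Ephb1 and Plxna4os2.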

How the results depend on the processing

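The count of the 59 genes called stayed within 1.5 times its value under each alternative run: 24 in the main analysis and 21 to 29 elsewhere between ROS++ and ROS+, 49 and 42 to 49 between ROS+++ and ROS+, and 36 and 33 to 38 between ROS+++ and ROS++. Leaving out 1 library at a time gave 21 to 27, 46 to 49 and 34 to 38. No call of a gene changed direction under any alternative, and 20 of the 24, 45 of the 49 and 26 of the 36 calls passed under each alternative that tested the gene. Of the 52 calls of the F-test, 45 passed in the same way and 7 were lost under some alternative. Robo2 was among the lost, in 10 of 23 alternatives. The counts of class orders rest on these 52 calls. Of the 7 genes that the F-test did not call, 5 passed under some alternative. The stricter filter of 5 CPM left 49 of the 59 genes. Among all genes, the calls higher in ROS+++ than in ROS++ went from 1493 to 2825 with relative log expression factors, and those lower from 4405 to 2587; those lower in ROS+++ than in ROS+ went from 6043 to 3912. With sets of consecutive library numbers from the titles as a block, 26, 48 and 37 members were called; the labels do not say that such a set shares anything. Depth limited the genes near 0 in a class, for which a difference on the log2(CPM + 1) scale understates the change.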
